A study of Mus musculus with 2 samples.

Results

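The regions described here are the starts and first exon ends of protein-coding genes on mouse autosomes (build mm9), grouped by how long exon 1 is. For each gene the coding transcript with the longest span and at least 2 exons was taken, and it was kept when no other annotated TSS lay within 3 kb. Of 21418 autosomal protein-coding genes, 18669 had such a transcript and 6438 of these were kept. Exon 1 had 50 to 150 bases in 2314 members, over 150 to 400 bases in 2931, over 400 to 800 bases in 874 and over 800 bases in 319. A further 507 genes with an exon 1 under 50 bases met the distance rule but belong to no length group. The question was whether the Msl1 and Nsl1 maxima keep their distance from the TSS or from the end of exon 1 when exon 1 becomes longer.

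Both binding maps come from wild type mESCs, mouse embryonic stem cells labelled E14, on the 129P2/OlaHsd background and at passage P26. Chromatin was cross-linked with 1% formaldehyde, sheared and precipitated with an antibody against Msl1 or Nsl1, and there was 1 library per antibody. For Msl1 there were 23888517 reads, each 50 bases long, and for Nsl1 26084098, each 36 bases long, and the libraries were prepared with different kits, so that antibody, kit and read length cannot be told apart in any difference between them. Reads at distinct positions, each counted once, made up 81.7% (Msl1) and 95.4% (Nsl1) of the nuclear reads. No input library was used here, and without replicates no test was made. The intervals given (95%, exact, Poisson for counts and binomial for shares) therefore describe counting error alone. For shares of members, the intervals treat each member as an independent draw and take each call as exact. Those of the downstream edge and of the ratio of shares are only built from such bounds, as explained where they first appear.

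Msl1 is the scaffold of the MSL complex and Nsl1 that of the NSL complex, and both complexes carry the histone acetyltransferase Mof, which acetylates lysine 16 of histone H4. At a gene start, RNA polymerase II begins transcription at the TSS, and the first 5′ splice site, the junction between exon 1 and intron 1, is the first splicing signal that it transcribes. Many mouse promoters lie in CpG islands, stretches rich in CpG dinucleotides that often reach from the promoter into exon 1.

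The junctions themselves show where exon 1 stops in the members with the most reads, and in a pair of members that stand apart. Each line gives the last 10 bases of exon 1 and the next 20 bases, on the strand of the gene, with the first 6 of these in capitals. The 20 bases lie in intron 1 except at Gm10800, whose annotated intron 1 has only 4 bases. Srsf3 and Ddit4 are short first exons with many Msl1 reads, Acsf3 and Dcp1a short ones with many Nsl1 reads, Klf5, Mnt, Klhl21 and Klf9 long ones with many Msl1 reads, and Trmt61a and Tysnd1 long ones with many Nsl1 reads.
Srsf3 (chr17:29169722-29169751, plus strand, exon 1 of 114 bases): caggatctcgGTAAGGgaccggcgaacgga
Ddit4 (chr10:59414425-59414454, minus strand, exon 1 of 74 bases): gcgctagctgGTGAGTgtccctcccgggtg
Acsf3 (chr8:125299481-125299510, plus strand, exon 1 of 86 bases): ctgaccccagGTGAGCgcgcagcagactac
Dcp1a (chr14:31292993-31293022, plus strand, exon 1 of 252 bases): caaccagtggGTGAGTgaggcccggccggg
Klf5 (chr14:99698432-99698461, plus strand, exon 1 of 532 bases): gctggtccagGTAAGCagagcggccggcct
Mnt (chr11:74644894-74644923, plus strand, exon 1 of 482 bases): agagcacgtgGTGAGCggcccggctgggcc
Klhl21 (chr4:151384063-151384092, plus strand, exon 1 of 1161 bases): tacgtgacggGTGAGTgagttggtggattt
Klf9 (chr19:23216740-23216769, plus strand, exon 1 of 1034 bases): gtgcatacagGTTAGCggcgtcgcctctcc
Trmt61a (chr12:112917164-112917193, plus strand, exon 1 of 858 bases): tgtgaatcagGTGAGCtcctctggtatgag
Tysnd1 (chr10:61159481-61159510, plus strand, exon 1 of 1229 bases): ctacacccaaGTAAGActcaggactgcccg
Gm10800 (chr2:98507370-98507399, minus strand, exon 1 of 69 bases): catttctaaaTATTCCacctttttcagttt
Gm10801 (chr2:98502656-98502685, plus strand, exon 1 of 272 bases): gtatcattttCCATGTttttcattgtaact

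Intron 1 began with GT in 6253 of the 6438 members (97.1%), as it did in the first 10 of these lines, and with GC in 84. The share with GT was 97.6%, 97.3% and 97.6% in the 3 groups up to 800 bases and 90.3% above 800 bases (288 of 319). The longest first exons therefore hold more annotated junctions without the usual dinucleotide than the others. At Gm10800 and Gm10801, predicted genes about whose function nothing is known here, the annotated intron does not begin with GT. These neighbours on chromosome 2 held the most reads of all members, 869 and 660 distinct Msl1 reads and 744 and 692 distinct Nsl1 reads within 1 kb of the TSS, with highest windows 204-fold and 202-fold (Msl1) and 131-fold and 172-fold (Nsl1) over the level 5 to 50 kb away. Both antibodies gave levels of the same order there, and leaving these genes out moved none of the results beyond its counting interval as long as repeated positions were counted once.

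The length groups also differed in what they hold. Median exon 1 length was 100, 225, 515 and 1074 bases in the 4 groups. The start codon lay in exon 1 in 53.5% of the members with the shortest first exons, in 71.7% and 87.3% of the next groups and in 96.9% of those over 800 bases, so that long first exons mostly hold coding sequence besides the 5′ UTR. CpG-rich TSSs, with an observed over expected CpG ratio of at least 0.6 and at least 50% GC within 250 bases, made up 29.1%, 45.1%, 53.9% and 48.0% of the groups. CpG density reached further into the gene with a longer exon 1. It fell below the middle between its maximum and its upstream level 300, 450, 650 and 1100 bases downstream of the TSS in the 4 groups. The Msl1 edge described next moved the same way over the 4 groups and the Nsl1 edge did not, and the part of base composition in these positions was not separated except where stated.

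Some gene families differed in exon 1 length. Of all members, 18.5% had an exon 1 over 400 bases. Among the developmental transcription factors counted here (Hox, Sox, Fox, Pax, Tbx and Gata genes) this held for 24 of 38, with a median exon 1 of 506.5 bases. It held for 19 of 46 potassium channels and 39 of 113 solute carriers. Of 116 zinc finger genes it held for 14 (12.1%), and further for 2 of 11 Wnt ligands, 1 of 6 proteasome subunits and 1 of 9 mitochondrial ribosomal protein genes. At zinc finger, Wnt, proteasome and mitochondrial ribosomal protein genes the counts are too small to be told from the share of all members. The same limit applies to 0 of 10 cytosolic ribosomal protein genes, whose median exon 1 had 83.5 bases, and to 0 of 8 complex I genes. Median reads within 1 kb of the TSS were 29 (Msl1) and 32 (Nsl1) over all members. The Msl1 median was above this in all 9 families, from 34 at zinc finger genes to 66 at cytosolic ribosomal protein genes, and the Nsl1 medians ran from 31 at potassium channels to 85 at mitochondrial ribosomal protein genes. CpG-rich TSSs were held by 9 of 10 cytosolic and 8 of 9 mitochondrial ribosomal protein genes, against 2620 of all 6438 members, and their part in these levels was not tested.

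Around the TSS, the Msl1 binding profile had a smaller rise upstream, dipped just before the start site, rose inside the gene and fell slowly. Its downstream part reached further when exon 1 was longer. The highest 50 base bin was centred 175, 225, 375 and 475 bases downstream of the TSS in the 4 groups, from the shortest to the longest first exons. Folds here are over the mean level 3 to 2 kb upstream of the same members. These maxima were 2.84-fold (2.74 to 2.95), 3.50-fold (3.40 to 3.61), 3.68-fold (3.50 to 3.86) and 3.36-fold (3.08 to 3.66). The bin directly downstream of the TSS was only 1.53-fold, 1.58-fold, 1.8-fold and 1.66-fold. Upstream, in the over 150 to 400 group, the profile fell from 1.73-fold (-400 to -350 bases) to 1.26-fold (-150 to -100 bases). In the group over 800 bases it fell from 1.91-fold (-300 to -250 bases) to 1.35-fold (-150 to -100 bases). The top of the Msl1 profile was broad, however. The first and last bins whose counting interval overlapped that of the maximum enclosed 150 to 350, 150 to 300, 200 to 550 and 150 to 1050 bases. Such a span can also hold bins below the maximum, as it did in both groups over 400 bases. The bin from 200 to 250 bases overlapped the maximum in all 4 groups, so that the position of the maximum alone did not separate the groups.

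The downstream edge separated them better. It was taken as the first bin below the middle between the maximum and the upstream level, and lay 700 (650 to 700), 750, 850 (850 to 1000) and 1450 (1250 to 1650) bases downstream of the TSS for Msl1. By these bounds the edge of the group over 800 bases lay beyond those of the other groups. In members with CpG-rich TSSs the edge lay at 700, 750, 1000 and 1350 bases. In the other members it lay at 600, 650, 850 and 650 bases, and in the last of these groups the 166 members gave an interval from 500 to 1600 bases. By the edge, the longer reach in first exons over 800 bases was thus measured in CpG-rich members (1200 to 1450 bases, n = 153) and not resolved in the rest. By share of the Msl1 reads between 1 kb upstream and 3 kb downstream, the rest also differed. Over 800 to 1200 bases downstream held 11.8% (11.1 to 12.5) in first exons over 800 bases. In those of 50 to 150 bases it held 10.0% (9.8 to 10.3).

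Nsl1 was highest at the TSS. Its highest bin was centred 25 bases upstream of the TSS (-25) in the first 3 groups and 25 bases downstream in members with an exon 1 over 800 bases. In this last group the bins from -250 to 200 bases overlapped the maximum in counting error except for that from -150 to -100 bases, those from 200 to 550 bases lay below it, and those from 550 to 650 bases overlapped it again. Its maxima were 3.04-fold (2.94 to 3.14), 3.43-fold (3.34 to 3.52), 2.17-fold (2.05 to 2.29) and 2.11-fold (1.91 to 2.33), lower in both groups over 400 bases than in both groups below. The Nsl1 edge lay 150, 200, 550 (300 to 600) and 250 (200 to 350) bases downstream and did not move step by step with exon length. In the group over 800 bases this edge was only the first dip below the middle, and the profile was back above it from 400 to 500 (1.59-fold and 1.57-fold), from 550 to 650 (1.72-fold and 1.75-fold) and from 700 to 800 bases (1.64-fold and 1.66-fold). In members without CpG-rich TSSs the highest Nsl1 bin was centred at 25, 75, 225 and 625 bases in the 4 groups, on profiles that rose only 1.71-fold to 1.83-fold. The spans within counting error were -50 to 150, -50 to 200, -150 to 550 and -500 to 2500 bases, so that these positions did not separate the groups.

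**Figure D1:**
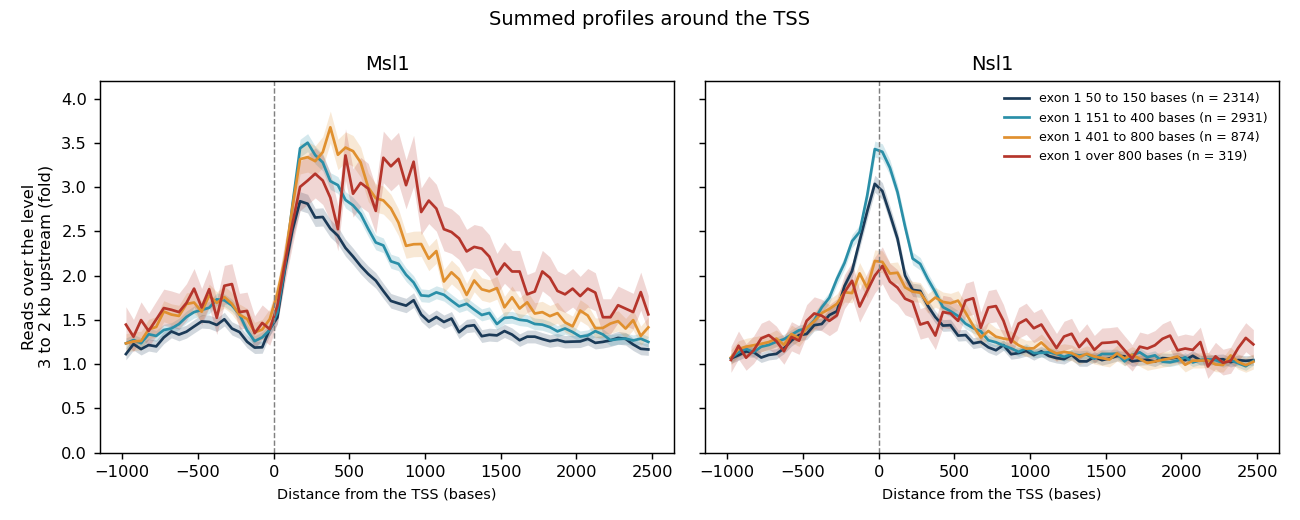
Summed reads in 50 base bins against distance from the TSS, in fold over the level 3 to 2 kb upstream, for the 4 groups of exon 1 length; bands are exact 95% Poisson intervals. The Msl1 curve of first exons over 800 bases stays near its top until about 1 kb and reaches its edge at 1450 bases, while the Nsl1 curves peak at the TSS in every group and are lower in both groups over 400 bases.

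Around the end of exon 1, where negative positions lie in the exon, the Msl1 maximum was centred at 75, -25, -125 and -125 bases in the 4 groups. It moved by 200 bases while the median length of exon 1 went from 100 to 1074 bases, but the last position lies on a broad top. Over 800 bases, members without CpG-rich TSSs had it centred at -775 bases (-950 to 50). In 10 classes of equal size by exon 1 length, described below, the Msl1 maximum went from 209 to -273 bases from the median exon end. In the group over 800 bases the bins from -800 to -50 bases overlapped the maximum in counting error except for that from -400 to -350 bases, at 2.73-fold, and the level was lower past the exon end. The Nsl1 maximum lay at -125 (-150 to -100), -225 (-250 to -150), -475 (-700 to -50) and -875 (-1000 to 50) bases. The spans of the longer groups are wide, and the last covers nearly the whole exon side that was searched and locates no maximum, and the searched 1000 bases leave out the TSS of many of these members.

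The drop at the junction was measured from the 200 bases on either side. In the group of 50 to 150 bases, and in the shorter members of the next, the exon side also takes in bases upstream of the TSS, so that only the groups over 400 bases compare exon with what follows it. In Msl1, the exon side held 0.58 (0.56 to 0.60), 0.91 (0.89 to 0.93), 1.18 (1.14 to 1.22) and 1.37 (1.28 to 1.47) times the reads of the intron side in the 4 groups. A fall with distance from the TSS alone also gives ratios over 1, so the same measure was taken at the same distance in members with an exon 1 of 50 to 150 bases, where that position is not the end of exon 1. At 515 bases it was 1.20 (1.17 to 1.24) there, no lower than the 1.18 at true exon ends in the over 400 to 800 group. At 1074 bases it was 1.08 (1.04 to 1.11), against 1.37 at true ends in the group over 800 bases. In CpG-rich members the corresponding values were 1.29 against 1.18 at the shorter distance, and 1.08 (1.03 to 1.14) against 1.38 (1.27 to 1.49) at the longer. The Msl1 ratio was thus above this reference for first exons over 800 bases and not for those of over 400 to 800 bases. Level and base composition were not taken into account. Near 1074 bases the short first exons were down to 1.53-fold (1050 to 1100 bases), and so low a level keeps their ratio nearer 1. The exon side of the group over 800 bases was at 3.16-fold. The reference also used the median distance alone. A drop beyond the fall with distance was therefore not separated from these differences.

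For Nsl1 the exon side held 1.42, 1.45, 1.21 (1.16 to 1.27) and 1.18 (1.09 to 1.29) times the intron side. The reference values in short first exons were 1.17 (1.14 to 1.21) at 515 bases and 1.04 (1.00 to 1.08) at 1074 bases. Over all members the intervals overlapped in the shorter group. The ratio was above the reference in the group over 800 bases, where the reference level was again low (1.15-fold from 1050 to 1100 bases). In CpG-rich members it was below the reference at over 400 to 800 bases, 1.19 (1.12 to 1.26) against 1.34 (1.27 to 1.41), and overlapped it above 800 bases, 1.13 (1.00 to 1.27) against 1.07 (1.00 to 1.14). A ratio above the reference in CpG-rich members was thus measured for Msl1 over 800 bases and not for Nsl1. CpG density dropped across the junction as well. It was 7.18 per 100 bases on the exon side and 4.33 on the intron side in the over 400 to 800 group, and 5.23 and 2.79 in the group over 800 bases.

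**Figure D2:**
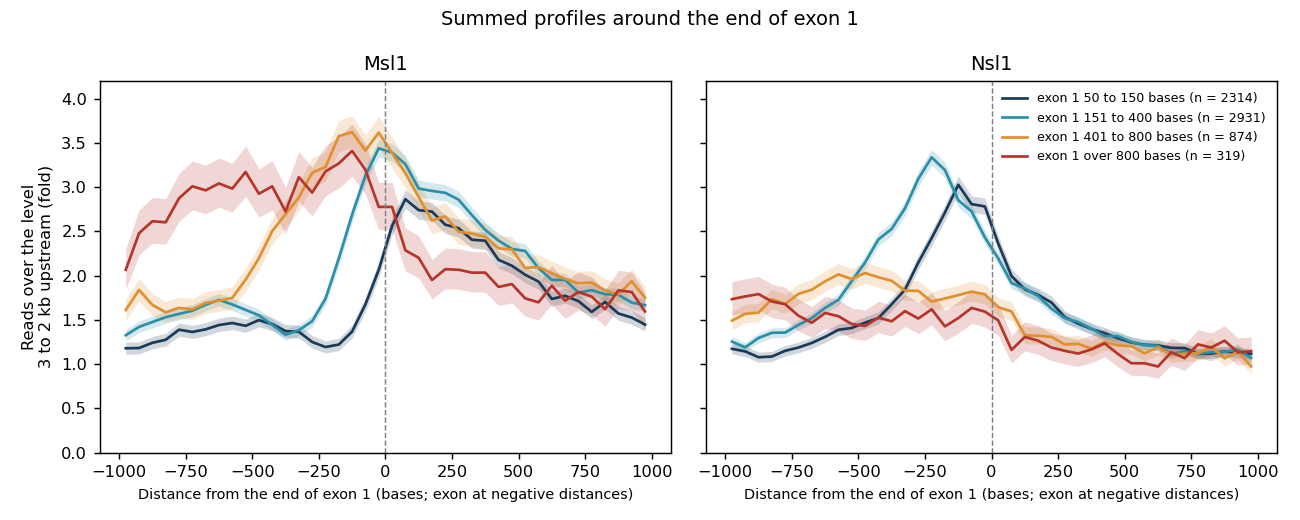
Summed reads in 50 base bins against distance from the end of exon 1, with the exon at negative distances, in fold over the level 3 to 2 kb upstream; bands are exact 95% Poisson intervals. The Msl1 curve of first exons over 800 bases drops from its maximum at -125 bases, the curves differ in level at the junction, and the Nsl1 curves of both groups over 400 bases are low and broad.

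The 4 groups were then replaced by 10 classes of equal size by exon 1 length, with 643 or 644 members each. A maximum that follows the TSS gives a slope of 0 on exon 1 length, and one that follows the end of exon 1 a slope of 1. The Msl1 maximum lay between 175 and 275 bases in the 8 classes with median exon 1 up to 328 bases, at 375 bases in the class with a median of 453 bases and at 525 bases in the class with a median of 798 bases. Its slope was 0.433 ± 0.0606 (SE over 10 classes), between both values, and 0.340 without the longest class. The SE here and below comes from the scatter of the classes about the line. It leaves out the error in the position of each class, which is large where the top is broad. The Nsl1 maximum lay at -25 or 25 bases in all 10 classes, with a slope of 0.0301 ± 0.0321, although in members without CpG-rich TSSs, where its position was poorly resolved, the slope was 0.304. In CpG-rich members alone the Msl1 slope fell to 0.139, since the maximum of their longest class returned to 225 bases on the broad top. In their first 9 classes the maximum rose from 225 to 525 bases. In CpG-rich members of the group over 800 bases the highest Msl1 bin was centred at 925 bases (150 to 950). The Msl1 edge lay between 650 and 800 bases in the first 8 classes, at 850 bases in the next and at 1250 bases in the longest class, and its slope was 0.757 ± 0.0837 in all members and 0.802 ± 0.118 in CpG-rich members, although without the longest class it was 0.458 in all members. The corresponding Nsl1 slopes of the edge were 0.232 ± 0.0951 and 0.0623 ± 0.0363, and without the longest class the slope in all members was 0.514. In all members the slope of the edge therefore set Msl1 apart from Nsl1 with the longest class included and not without it. In the first 9 classes of CpG-rich members the Msl1 edge lay between 650 and 900 bases and the Nsl1 edge between 150 and 250 bases.

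**Figure D3:**
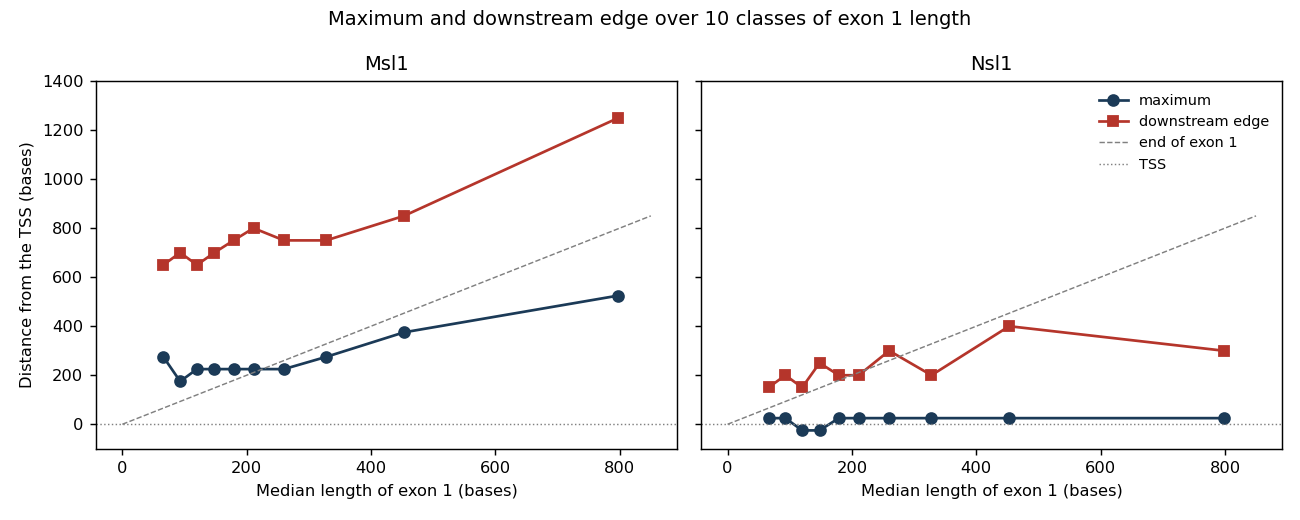
Distance from the TSS of the maximum and of the downstream edge (first bin below the middle between maximum and upstream level) against median exon 1 length, in 10 classes of equal size; dashed line, end of exon 1; dotted line, TSS. For Msl1 both rise in the longest classes, to 525 and 1250 bases, whereas the Nsl1 maximum stays at -25 or 25 bases throughout.

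To compare both distances in a single description, reads in 100 base bins from -1000 to 2500 were summed over members by length class and both distances. The sums were modelled as a product of a level per length class, a factor for distance from the TSS and a factor for distance from the end of exon 1. The latter was held constant beyond 1500 bases, and its values are relative to the bin at -1500. Shares are of the deviance that the class levels alone left in these sums. For Msl1, TSS distance alone described 87.9% of the deviance, exon end distance alone 70.8% and both together 91.7%. For Nsl1 the values were 90.3%, 81.1% and 93.4%. TSS distance therefore described more than exon end distance for both proteins, and adding the exon end to the TSS gained 3.76 percentage points for Msl1 and 3.07 for Nsl1. When GC and CpG content of the bins entered first, they alone described 44.3% for Msl1 and 84.9% for Nsl1, and the gain from the exon end fell to 1.51 and 1.29 points. The Msl1 factor for exon end distance, over all lengths, fell across the junction without base composition, from 1.23 in the last 100 bases of the exon to 1.17, 1.08 and 1.04 in the first bins of the intron. With GC and CpG content in the model it rose instead, from 1.18 to 1.23, 1.27 and 1.32. The Nsl1 factor fell from 1.30 to 1.19 at the junction without base composition and from 1.26 to 1.18 with it, and in the latter case was back at 1.25 in the third bin of the intron. The drop in Msl1 at the exon end was therefore not separated from the drop in CpG and GC content there. Much of the Nsl1 shape thus went along with base composition, and less of the Msl1 shape did.

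Intron and exon could also be compared at 1 distance from the TSS. The stretch from over 400 to 800 bases downstream lies in intron 1 or beyond when exon 1 has at most 150 bases, and within exon 1 when it has over 800. It held 13.7% (13.5 to 13.9) of the Msl1 reads between 1 kb upstream and 3 kb downstream in the first case and 14.6% (14.2 to 15.0) in the second. The ratio was 1.06 (1.02 to 1.11) over all members but 0.956 in CpG-rich members and 1.12 in the others. Its lower bound divides the lower bound of the second share by the upper bound of the first, and its upper bound does the reverse. The next stretch, from over 800 to 1200 bases, held 10.5% (10.3 to 10.6) and 13.9% (13.4 to 14.3). For Nsl1 the share from over 400 to 800 bases was 9.87% (9.71 to 10.0) and 11.8% (11.4 to 12.3), a ratio of 1.20 (1.14 to 1.26).

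Single members were examined where exon 1 had over 400 bases. The highest 250 base window between 750 bases upstream of the TSS and 750 bases downstream of the exon end was located, and by the geometry of the search 50% of the positions lie nearer each of both anchors. For Msl1 it lay nearer the end of exon 1 in 621 of 1017 members with at least 20 reads (percent called 61.1, interval 58.0 to 64.1), and for Nsl1 in 444 of 1108 (percent called 40.1, interval 37.2 to 43.0). At over 400 to 800 bases the Msl1 share was 64.0% (60.4 to 67.5), against 50.8% (48.1 to 53.5) when the same distance was searched in members with an exon 1 of 50 to 150 bases. Above 800 bases it was 53.2% (47.2 to 59.2), against 31.4% (29.2 to 33.8) in those short first exons. The Nsl1 shares were 38.8% against 33.2%, and 43.5% against 31.7%. The share at true ends was thus higher than at the same distance elsewhere for both proteins. Over all members the intervals overlapped only for Nsl1 in the shorter group. A lower maximum by itself brings this share nearer 50%. The Nsl1 maximum was 2.17-fold and 2.11-fold in the long groups and 3.04-fold in the short reference. In CpG-rich members it was 2.68-fold and 2.58-fold against 5.58-fold. The Nsl1 differences were not separated from this. The compared groups differ in their share of CpG-rich TSSs, however. Within CpG-rich members the Msl1 shares were 69.0% (64.6 to 73.2) against 55.6% (51.6 to 59.5), and 55.7% (47.3 to 63.8) against 17.7% (14.8 to 20.8). In the other members the Msl1 intervals overlapped, at 55.4% (49.2 to 61.4) against 46.3% (42.5 to 50.1) and 50.4% (41.5 to 59.3) against 40.8% (37.6 to 44.0). The Nsl1 shares lay above the reference without overlap in both kinds of members. They were 31.3% (27.1 to 35.8) against 21.0% (17.9 to 24.4) and 31.5% (24.2 to 39.7) against 12.8% (10.3 to 15.6) in CpG-rich members, and 49.0% (43.6 to 54.4) against 40.3% (37.4 to 43.3) and 55.3% (47.0 to 63.4) against 41.2% (38.5 to 43.9) in the others.

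**Figure D4:**
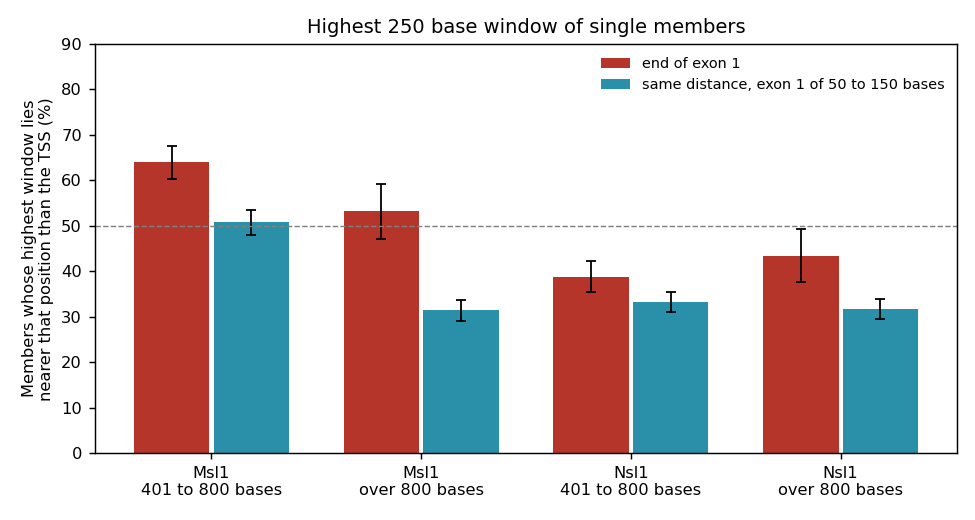
Share of members with at least 20 reads whose highest 250 base window lies nearer the end of exon 1 than the TSS (red), and nearer the same distance in members with an exon 1 of 50 to 150 bases (blue); bars start at 0, error bars are exact 95% binomial intervals and the dashed line marks the 50% of positions nearer each. Msl1 reaches 64.0% and 53.2% at true ends and Nsl1 38.8% and 43.5%, each above its reference share.

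Reads within 200 bases of either anchor were compared in the same long first exons. Msl1 had at least 1.5 times as many reads at the end of exon 1 as at the TSS in 313 of 544 members with at least 20 reads (percent called 57.5), and the reverse held in 60 (11.0). The reference in short first exons was 55.1% at the median end of the over 400 to 800 group, where true ends gave 58.4%, and 18.0% at the median end of the group over 800 bases, where true ends gave 54.6% (65 of 119). Counted this way, the Msl1 share at the exon end was close to the reference below 800 bases and above it in the longest first exons. Above 800 bases the shares were 56.1% against 17.5% in CpG-rich members, and 47.6% (25.7 to 70.2, 10 of 21) in the others, an interval that overlapped the reference of 13 of 65 (11.1 to 31.8). Nsl1 had the higher reads at the end in 56 of 365 members (15.3) and at the TSS in 159 (43.6), against reference shares of 4.64% and 69.8% at the shorter distance and of 4.36% and 81.8% at the longer. In members without CpG-rich TSSs this order was not resolved, with more Nsl1 reads at the end in 27.3% of the members and at the TSS in 25.3%. These shares rest on few members. At over 400 to 800 bases each was 21 of 80 (17.0 to 37.3). Above 800 bases they were 6 of 19 (12.6 to 56.6) and 4 of 19 (6.1 to 45.6). The references in such members were 5.95% and 60.1% at the shorter distance and 10.8% and 60.5% at the longer.

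In members with at least 20 searched reads in both libraries, the highest Msl1 window lay further downstream than the highest Nsl1 window in 721 of 1027 members (70.2%, 67.3 to 73.0) with an exon 1 of 50 to 150 bases, in 1244 of 1789 (69.5%) of the next group, in 462 of 724 (63.8%) at over 400 to 800 bases and in 165 of 276 (59.8%, 53.7 to 65.6) above 800 bases. Median positions were 250, 275, 375 and 675 bases for Msl1 and 25, 25, 125 and 508 bases for Nsl1. The order of both proteins along the gene was therefore kept in most of the members that could be compared in each length group (1027 of 2314 and 1789 of 2931 in the groups up to 400 bases), while both medians lay further downstream in long first exons, where the searched span is also wider.

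Members with the start codon in exon 1 and in a later exon had their maxima at like positions. Among members with an exon 1 of over 150 to 400 bases the Msl1 maximum was centred at 225 bases both in the 2102 members with the start codon in exon 1 and in the 829 with it further downstream, with edges at 750 and 900 bases. At over 400 to 800 bases it lay at 375 bases (n = 763) and 425 bases (n = 111), well within overlapping spans of 150 to 550 and 50 to 1200 bases. The Nsl1 maxima in these members lay between -25 and 75 bases.

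Members with the most reads show both patterns, and because they were chosen by their reads their levels are no result. Klf5, a Krüppel-like transcription factor expressed in mESCs, starts at chr14:99697910 and its exon 1 of 532 bases includes the start codon. It had 18, 44, 51 and 27 Msl1 reads in the 4 successive 250 base stretches downstream of the TSS and 5, 5, 6 and 5 Nsl1 reads there. The highest Msl1 window held 51 reads, 16.3-fold over the local level, and was centred 118 bases past the exon end. Mnt, a Max partner and transcriptional repressor, starts at chr11:74644422 and had 17, 46, 37 and 33 Msl1 reads in these stretches, with the highest window 57 bases before the end of its exon 1 (position -57). Both Klf5 and Mnt thus had their Msl1 maximum close to the junction, with few Nsl1 reads there.

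Longer first exons held the Msl1 maximum inside the exon. Klhl21, a substrate adaptor of Cul3 ubiquitin ligases that starts at chr4:151382912, had 14, 37, 42, 35 and 20 Msl1 reads in the first 5 stretches, and its highest window was centred 475 bases from the TSS and at -686 bases from the exon end. Klf9, another Krüppel-like factor that starts at chr19:23215716, had 22, 18, 40 and 28 and its highest window at 675 bases. In contrast, Trmt61a, the catalytic subunit of a tRNA methyltransferase that starts at chr12:112916316, had 61 Nsl1 reads in the 250 bases upstream of the TSS and 53 in the 250 bases downstream, then 15. Tysnd1, a peroxisomal protease that starts at chr10:61158262, had 25 and 69 Nsl1 reads on either side of the TSS and 14 in the next stretch. Its Msl1 reads were 15, 26, 14, 19 and 24 over the first 5 stretches, spread along the exon of 1229 bases, and the highest Msl1 window lay 229 bases before its end (position -229).

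**Figure D5:**
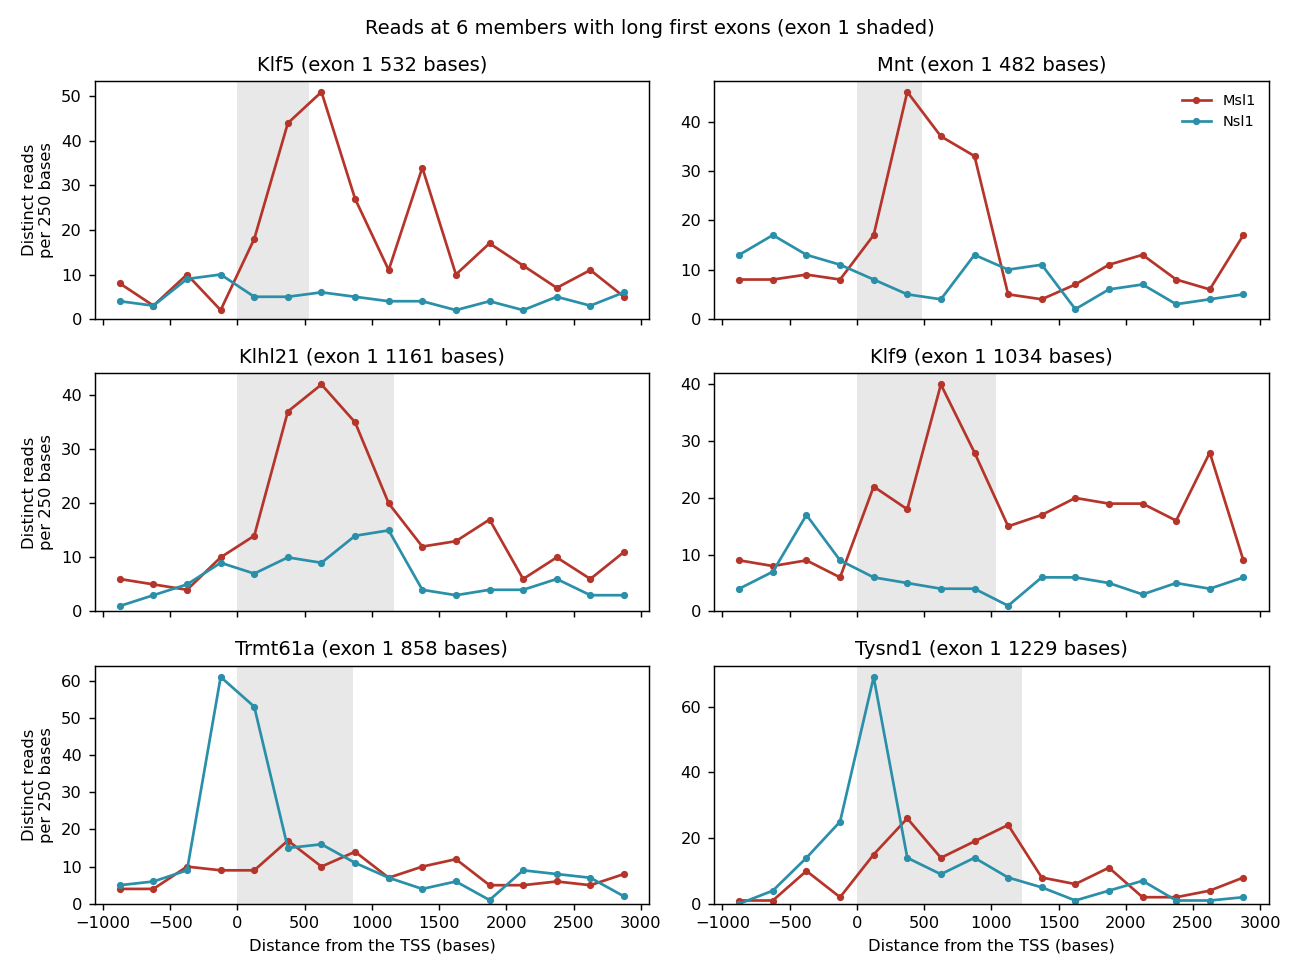
Distinct Msl1 (red) and Nsl1 (blue) reads per 250 bases against distance from the TSS at 6 members with long first exons, exon 1 shaded. Msl1 is highest near the exon end at Klf5 and Mnt and inside the exon at Klhl21 and Klf9, and Nsl1 is highest at the TSS of Trmt61a and Tysnd1, with up to 61 and 69 reads.

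Short first exons gave the same order of both proteins with little distance between TSS and exon end. Srsf3, an SR splicing factor that starts at chr17:29169618, had 104 Msl1 reads in its highest window, centred 175 bases from the TSS and 61 bases past the end of exon 1. Ddit4, an inhibitor of mTORC1 signalling that starts at chr10:59414518, had 64 Msl1 reads in a window centred 325 bases from the TSS, beyond an intron 1 of 124 bases. Acsf3, a mitochondrial acyl-CoA synthetase that starts at chr8:125299405, had 178 Nsl1 reads in a window at -75 bases and 10 Msl1 reads in its highest window. Dcp1a, an mRNA decapping factor that starts at chr14:31292751, had 277 Nsl1 reads at 25 bases and 23 Msl1 reads at 375 bases. At Dcp1a the Msl1 window lay in intron 1 and at Srsf3 just past the junction, whereas the 10 reads at Acsf3 did not resolve a position.

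Among genes that the study examined, 6 are members. Rpf2, a ribosome biogenesis factor with an exon 1 of 437 bases and the start codon in a later exon, had 39 Nsl1 reads within 200 bases of the TSS and 14 within 200 bases of the exon end, and 13 and 14 Msl1 reads. Amd1, which makes decarboxylated S-adenosylmethionine for polyamine synthesis, has an exon 1 of 438 bases, and its highest Msl1 window of 27 reads lay at 1025 bases, 587 bases into intron 1. Esrrb, a pluripotency factor, was examined only at the start of its transcript with the longest span. This has an exon 1 of 422 bases and an intron 1 of 108607 bases. Around that exon the highest window was 2.70-fold over the local level in both libraries. Any start elsewhere in Esrrb was not measured. Dynlt1b, Myst1 (the gene of Mof) and Tnfsf13b belong to the over 150 to 400 group, with highest Msl1 windows of 8, 11 and 7 reads. At counts this low the position of the highest Msl1 window was not resolved in these genes. Their highest Nsl1 windows held 22, 29 and 29 reads and were centred at 75, -25 and 675 bases from the TSS. At Tnfsf13b Nsl1 was thus highest away from the TSS, at 9.19-fold over the local level.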

How the data were processed

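The authors sequenced single-end libraries (base calls with CASAVA 1.8.2), aligned them to mm9 with Bowtie 0.12.7, kept unique reads and deposited 1 line per aligned read. The score they deposited is 255 on every line and was not used. Read positions were counted here with numpy 2.4.6 and pandas 2.3.3 under Python 3.11.15, intervals were computed with scipy 1.17.1, and matplotlib 3.10.9 drew the plots.

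Repeated positions on a strand were counted once, and 5′ ends were shifted by 105 (Msl1) or 66 bases (Nsl1), from strand cross-correlation peaks at 211 and 132 bases. The running mean behind these peaks was added after the data were seen; without it the peaks are at 206 and 129 bases. Gene models were GENCODE models for mm9 of Ensembl release 65, another release than the study used. A TSS of any annotated transcript, including the same gene's, excluded a transcript within 3 kb. Repeats were not measured. Named genes are those the study discusses that are members, and the 3 members with the most reads of each library in each length group, of which a selection is described.

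Members, groups and lists were chosen with earlier results of these data known. The comparison with the same distance in short first exons, the slopes of the edge and the model with base composition were added after the data were seen. The counting was tested on simulated reads with known maxima.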

Additional observations from a re-analysis of the deposited data

How the results depend on the processing

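Each result was recomputed under up to 17 alternatives, and 433 of 502 recomputed values stayed within the counting interval of the reported value, or within 5 percentage points for shares of deviance, a tolerance set after the data were seen. The subset without CpG-rich TSSs, base composition in the model and both settings without Gm10800 and Gm10801 were also chosen after seeing the data. No value left its interval with members that have 1 exon 1 end (6386 of 6438) or an intron 1 of at least 1 kb (4780). The same held with first exons limited to 2000 bases (6397), with 20 length classes, or without Gm10800 and Gm10801. Apart from the limit on intron 1, these sets hold nearly all members and could hardly move a value. Wide spans of some maxima also left little room to move.

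Of 40 values each, 24 left their interval in members without CpG-rich TSSs and 18 when repeated reads were kept. With repeated reads kept, the Msl1 maximum lay 75 and 725 bases from the TSS and 25 and 425 bases from the exon end in the 2 shorter groups, with the edge at 150 bases in the first, the ratio of shares over 400 to 800 bases downstream fell to 0.969, and TSS distance, exon end distance and both described 51.5%, 48.1% and 62.7% of the deviance. For Nsl1 the maxima lay at 125 and 575 bases from the TSS and 25 and 275 bases from the exon end, the edge of the second group at 600 bases, the ratio was 1.04 and the shares of deviance were 47.8%, 49.2% and 64.1%, with the exon end ahead of the TSS. With repeated reads kept but Gm10800 and Gm10801 left out, all of these returned within their intervals except the Msl1 edge of the shortest first exons, at 600 bases, so those neighbours account for the change.

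CpG-rich TSSs alone lowered the Msl1 slope to 0.139, a value that rests on the longest class. They also lowered the ratio of shares to 0.956 and raised the Msl1 share nearer the exon end to 65.8%. The Nsl1 share nearer the end was 31.4%, and its calls at the end and at the TSS were 10.9% and 50.4%. In the members without CpG-rich TSSs, Msl1 had its maximum at 125 bases in the shortest group, its edge at 600, 650 and 650 bases in the first, second and last group, a ratio of shares of 1.12, shares of deviance of 45.2%, 37.9% and 52.4%, 53.8% nearer the end, and calls of 51.7% at the end and 18.0% at the TSS. Nsl1 there had its maximum at 75 and 225 bases from the TSS in the middle groups, its edge at 350 and 650 bases in the second and last group, its maximum from the end at -25 and -75 bases in the shorter groups, a slope of 0.304, shares of deviance of 61.0%, 58.7% and 66.9%, 50.9% nearer the end, and calls of 27.3% at the end and 25.3% at the TSS. The TSS and the exon end were thus not distinguished for Nsl1 in these members. The cause was not tested.

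With base composition in the model, the exon end described 82.5% (Msl1) and 91.1% (Nsl1). Where only other genes' TSSs excluded a transcript, the Msl1 edge of the shortest group lay at 750 bases, TSS distance described 93.3% and 64.8% of members had the Msl1 window nearer the end. Equal weight of members gave an Msl1 edge of 600 bases in the shortest group and a ratio of 1.14, and for Nsl1 an edge of 300.0 bases in the second group and a maximum at -25 bases from the end in the first. Bins of 100 bases put the edges of the second group at 800 (Msl1) and 300.0 bases (Nsl1), leaving out the 1% of members with the most reads put the Nsl1 edge there at 300.0 bases, and a shift of 100 bases put the Nsl1 maximum of the first group at -75 bases from the end. Calls at the end and at the TSS were 44.9% and 5.33% (Msl1) and 7.95% and 30.7% (Nsl1) at a ratio of 2. Within 150 bases they were 67.5% at the end for Msl1, and 11.0% and 52.9% for Nsl1.

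With 1 library per antibody, no result has a replicate, and no paired analysis was possible because there was no second sample of either antibody. The small number of members limited the group over 800 bases most, where the highest Msl1 bin summed 520 reads over 319 members. Single members with few reads have no resolved maximum.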
